A study of Mus musculus with 18 samples.

Results

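Cerebellar granule neurons are the most numerous neurons of the cerebellum, and the genes described here are 10 that mark their lineage or their synapses: Neurod1, Pax6, Zic1, Zic2, Cbln1, Cbln3, Fat2, Reln, Calb2 and Etv1. They were chosen by name, with earlier results of these data known, as every probe set whose platform gene symbol is 1 of these, over all arrays. Of the 10 genes, 8 had probe sets of their own, 15 of the 20380 probe sets that carry a single symbol, and 8 of the 12393 genes those stand for. All 8 passed the filter on low values and were among the 8320 genes tested, at or above the filter on all 18 arrays. Fat2, a giant protocadherin of granule neurons, had no probe set under its symbol and was not analysed here. Etv1, an ETS factor of maturing granule neurons, shared both of its probe sets with the pseudogene Gm5454, so that their values cannot be assigned to it.

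The study asked how cerebellar transcripts respond early to oxidative stress and whether apolipoprotein D (ApoD), a secreted lipid-binding lipocalin, changes that response. Affymetrix arrays were hybridised with RNA from the cerebellum of male mice of 80 ± 5 days. There were 6 groups of 3 arrays: wild-type, ApoD knock-out and Human-ApoD transgenic mice, which over-express ApoD in neurons, each given saline or paraquat. Paraquat, a herbicide that generates superoxide by redox cycling, was injected once into the peritoneum at 30 mg/kg in 200 µl of saline, and the tissue was taken after 6 h. The labels name paraquat on the treated arrays, and the other arrays were taken as saline from the treatment protocol. Each array carried equal RNA amounts of 3 mice of 1 group, 9 mice per group, so that replicate error here is error between pools. The promoter of the transgene, the strain background and the number of founder lines are not given in the sources used here.

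Granule neurons arise from precursors of the rhombic lip that divide in the external germinal layer under Sonic hedgehog, then migrate inward past Bergmann glia and send parallel fibres to Purkinje cells. ZIC factors and PAX6 act in these precursors and stay on in the mature cells, and NEUROD1 drives their differentiation and survival. Mature granule neurons secrete cerebellins, which join presynaptic neurexins to the delta glutamate receptor of Purkinje cells, and reelin, which signals through lipoprotein receptors. Calretinin, the product of Calb2, buffers calcium in them. In whole tissue, fewer cells of a type and less RNA per cell cannot be told apart, and Calb2, Pax6 and Reln are also transcribed in other cerebellar cells.

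Values are log2 signals, so a difference of 1 is a doubling of the signal. Differences are log2 fold changes from a linear model (limma) across all genes, and the threshold for a call was an adjusted p (Benjamini-Hochberg) under 0.05. The Apod probe set, the check of the labels, read 12.38 to 12.76 on the wild-type arrays and 8.22 to 9.83 on the knock-out arrays, with no overlap. On the transgenic arrays it read 12.13 to 12.35, and whether it detects the human transcript was not tested. The second knock-out paraquat array stood apart: its median was 6.98 against 7.10 to 7.15 on the other arrays, and its mean correlation with the other arrays was 0.971 against 0.986 to 0.993. Control probe sets also set transgenic arrays apart. The 18S ribosomal RNA probe set read 6.59 to 7.82 on transgenic arrays and 7.54 to 8.79 on the others. The spiked dap transcript read 11.76 and 12.19 on the first array of each transgenic group and 10.13 to 10.79 elsewhere. The 3' minus 5' signal of pyruvate carboxylase was 1.82 and 1.95 on the third array of each transgenic group, against 2.85 to 3.16 in wild-type, and it was 2.25 on the knock-out array that stood apart.

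Under paraquat, 2 of the 8 granule neuron genes fell on average over the genotypes, Neurod1 and Zic1, both transcription factors, and none rose. Neurod1 was 1.24-fold lower and Zic1 1.18-fold lower. The 2 genes are 25% of those tested, while 2.88% of all 8320 genes were called lower and 4.89% in either direction. As the genes were chosen with earlier results of these data known, this share is a description and not a test. The other 6 did not pass the test; 3 of the 8 had an unadjusted p under 0.05, against 18% of all genes, and the median over all 8 was -0.07 against -0.03 over all genes.

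The 250 bases before the start of each of these 2 genes are printed because both fell together, with sequence and coordinates from RefSeq, build GRCm38.p6. Both genes lie on the minus strand, Neurod1 at chr2:79456637-79456886 and Zic1 at chr9:91365769-91366018, written 5′ to 3′ in the direction of transcription. Capitals mark CANNTG, the general E-box pattern of basic helix-loop-helix factors, of which single factors bind only some forms, and CCAAT, the box bound by NF-Y.
Neurod1: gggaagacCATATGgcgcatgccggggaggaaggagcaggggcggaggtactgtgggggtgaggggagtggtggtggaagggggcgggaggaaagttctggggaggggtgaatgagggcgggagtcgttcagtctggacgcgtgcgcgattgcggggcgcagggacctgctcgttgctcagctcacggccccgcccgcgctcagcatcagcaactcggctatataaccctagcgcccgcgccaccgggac
Zic1: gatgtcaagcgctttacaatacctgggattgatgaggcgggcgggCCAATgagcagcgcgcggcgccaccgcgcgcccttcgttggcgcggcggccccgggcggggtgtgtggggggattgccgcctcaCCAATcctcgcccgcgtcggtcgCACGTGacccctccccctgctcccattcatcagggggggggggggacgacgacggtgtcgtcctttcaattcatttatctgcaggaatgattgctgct
The Neurod1 window held 1 CANNTG and 0 CCAAT, and the Zic1 window held 1 CANNTG and 2 CCAAT, counted on both strands and without overlap between the motifs. CANNTG was present in 66.2% and CCAAT in 33.8% of 32851 RefSeq promoter windows of the same length, so that neither is particular to these genes. The antioxidant response core TGACNNNGC, present in 10.2% of windows, matched neither window. The motifs were chosen with the sequences in view, and a match is a description of the letters only. Of the 10 genes, 7 had RefSeq entries of this kind, 9 windows in all.

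Neurod1, the basic helix-loop-helix factor of granule neuron differentiation, read 11.36, 11.51 and 11.21 in wild-type under saline and 11.11, 11.18 and 10.99 under paraquat. In knock-out it read 11.45, 11.57 and 11.44 under saline and 11.09, 10.84 and 11.34 under paraquat. In transgenic it read 11.56, 11.04 and 11.04 under saline and 10.90, 10.96 and 11.02 under paraquat. On the brighter Neurod1 probe set, whose values these are, the paraquat arrays lay below the saline arrays in each of the 3 genotypes. In the transgenic mice the margin was narrow, and on the dimmer probe set the transgenic groups overlapped. The average log2 fold change was -0.31 (SE 0.08, 95% interval -0.47 to -0.14, adjusted p = 0.031). The changes were -0.27 in wild-type, -0.40 in knock-out and -0.25 in transgenic, with adjusted p of 0.58, 0.15 and 1.0. The call of Neurod1 was close to the threshold: it was lost, with adjusted p of 0.052 to 0.082, on leaving out 1 of 10 arrays. Those were the first or second wild-type saline, wild-type paraquat array 1 or 3, any knock-out saline, the first transgenic saline, or the first or second transgenic paraquat array. With the knock-out paraquat array that stood apart left out, Neurod1 was at -0.26 (adjusted p = 0.037).

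Zic1, a zinc finger factor of granule precursors and mature granule neurons, read 13.14, 13.14 and 13.04 in wild-type under saline and 12.87, 13.00 and 12.89 under paraquat. It read 13.19, 13.29 and 13.19 in knock-out saline and 12.86, 12.73 and 13.01 in knock-out paraquat. The transgenic arrays read 13.09, 13.03 and 12.99 under saline and 12.71, 12.89 and 12.98 under paraquat. As for the brighter Neurod1 probe set, the groups did not overlap in any genotype, and the transgenic groups were the nearest to touching. The average change was -0.24 (SE 0.06, 95% interval -0.36 to -0.12, adjusted p = 0.016). By genotype it was -0.19 in wild-type, -0.36 in knock-out and -0.18 in transgenic, with adjusted p of 0.59, 0.067 and 1.0. The average call was kept on leaving out any 1 of the 18 arrays, with adjusted p from 0.0077 to 0.0499, and was -0.22 (adjusted p = 0.0096) without the array that stood apart.

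Both calls were lost when transgenic arrays 1 and 3 of both treatments were left out together, with -0.25 for Neurod1 (adjusted p = 0.23) and -0.23 for Zic1 (adjusted p = 0.13). That leaves 1 transgenic array per group, whose spread is taken from the other groups. Over wild-type and knock-out alone, in a fit without transgenic arrays, the changes were -0.33 for Neurod1 (adjusted p = 0.029) and -0.27 for Zic1 (adjusted p = 0.022). Both alternatives were chosen after seeing the data.

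**Figure D1:**
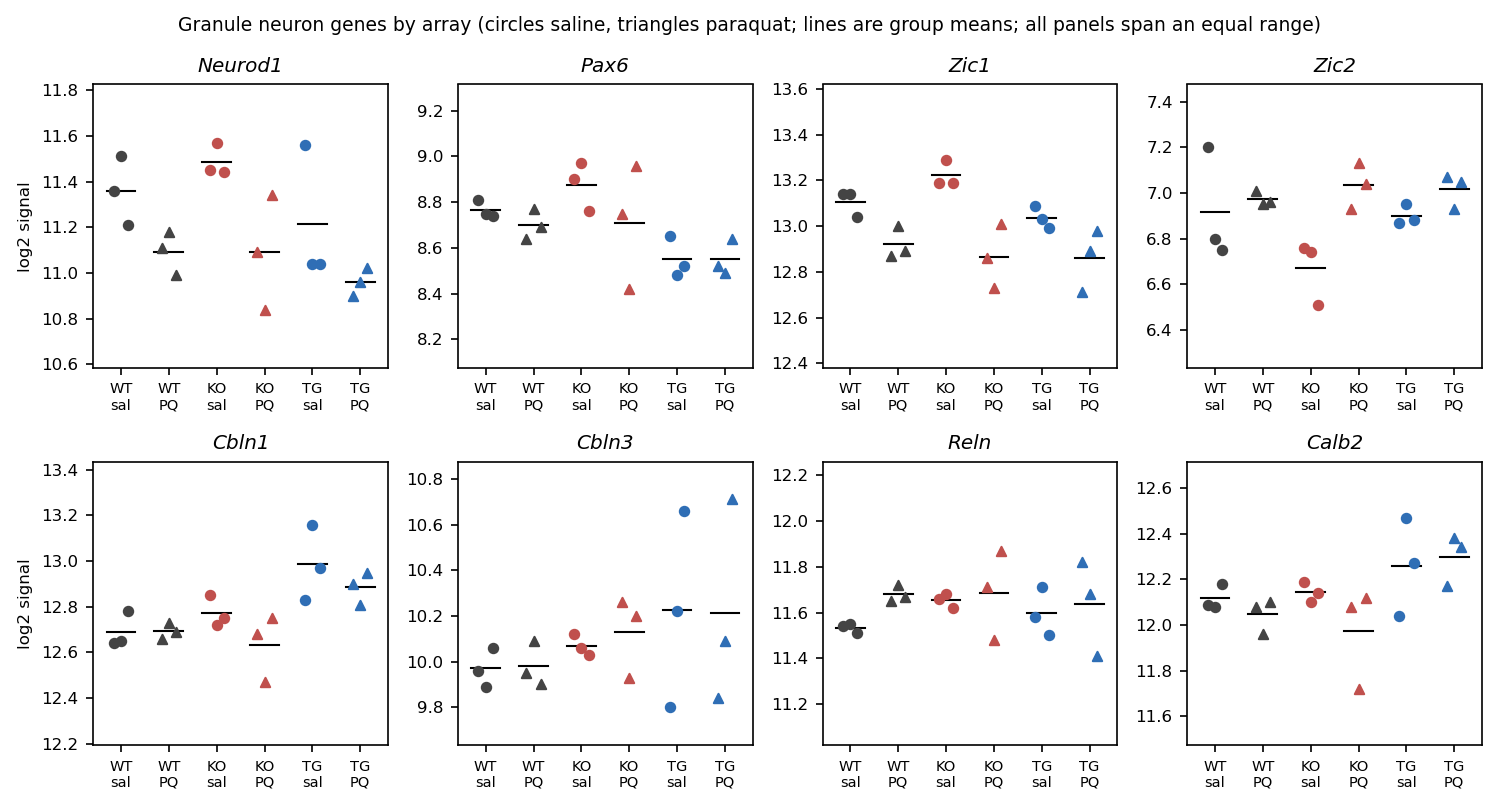
Log2 signal (vertical axis) of the 8 granule neuron genes on each of the 18 arrays by group (horizontal axis; WT wild-type, KO knock-out, TG transgenic, sal saline, PQ paraquat), with lines at group means and panels of equal height. For Neurod1 and Zic1 every triangle (paraquat) lies below the circles (saline) of its genotype, and for Cbln1 the 6 transgenic arrays at 12.81 to 13.16 lie above the 6 wild-type arrays at 12.64 to 12.78.

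Within single genotypes, 0 of the 8 genes passed limma's test for paraquat against saline, in wild-type, knock-out and transgenic mice alike. Of all genes, 2% were called in wild-type, 2.26% in knock-out and 0% in transgenic mice. At an unadjusted p under 0.05 there were 0, 3 and 0 of the 8, against 9.96%, 17.8% and 1.42% of all genes. Groups did not overlap, with paraquat lower, for 2 of the 8 in each genotype, Neurod1 and Zic1 each time, against 11.8%, 17.7% and 2.51% of all genes. In knock-out both passed without paraquat array 3, Neurod1 at -0.52 (adjusted p = 0.039) and Zic1 at -0.43 (adjusted p = 0.025), and Zic1 also without transgenic paraquat array 1 (adjusted p = 0.048). Without the knock-out paraquat array that stood apart they were at -0.27 (adjusted p = 0.49) and -0.29 (adjusted p = 0.14).

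Zic2, the close relative of Zic1, went the other way without passing the test. Its signal was dim, not far above the 40th percentiles of the arrays, which were 6.30 to 6.40. It read 7.20, 6.80 and 6.75 in wild-type saline and 7.01, 6.95 and 6.96 in wild-type paraquat, groups that overlap through the first saline array. In knock-out it read 6.76, 6.74 and 6.51 under saline and 6.93, 7.13 and 7.04 under paraquat, with every paraquat array above every saline array, as for 4.99% of all genes. The value of 7.13 is the array that stood apart. In transgenic it read 6.87, 6.95 and 6.88 under saline and 7.07, 6.93 and 7.05 under paraquat, which overlap. The changes were 0.06 in wild-type, 0.36 in knock-out (adjusted p = 0.11) and 0.11 in transgenic, and 0.18 on average (SE 0.07, 95% interval 0.04 to 0.32, adjusted p = 0.14). The knock-out change minus the wild-type change was 0.31 (95% interval -0.03 to 0.64, adjusted p = 0.87), so a difference between genotypes was not shown. Without the first wild-type saline array the average was 0.23 and passed the test (adjusted p = 0.042), and the wild-type change was 0.20.

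Pax6, the paired-box and homeobox factor of granule precursors and mature granule neurons, read 8.81, 8.75 and 8.74 in wild-type saline and 8.64, 8.77 and 8.69 in wild-type paraquat. The knock-out arrays read 8.90, 8.97 and 8.76 under saline and 8.75, 8.42 and 8.96 under paraquat. The transgenic arrays read 8.65, 8.48 and 8.52 under saline and 8.52, 8.49 and 8.64 under paraquat. Saline and paraquat overlapped in all 3 genotypes, and the average change was -0.08 (95% interval -0.22 to 0.06, adjusted p = 0.58). The low knock-out value of 8.42 is the array that stood apart, and without it the knock-out change went from -0.16 to -0.02.

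The genes of synaptic and secreted products were not called under paraquat in the fit of all arrays. Reln, the extracellular glycoprotein that granule neurons release, read 11.54, 11.55 and 11.51 in wild-type saline and 11.65, 11.72 and 11.67 in wild-type paraquat. These groups did not overlap, with paraquat higher, as for 16.6% of all genes, and the change was 0.15 (adjusted p = 0.88). In knock-out Reln read 11.66, 11.68 and 11.62 under saline and 11.71, 11.48 and 11.87 under paraquat, and in transgenic 11.58, 11.71 and 11.50 against 11.82, 11.68 and 11.41. The groups overlapped in both, and the average change was 0.07 (95% interval -0.06 to 0.21, adjusted p = 0.61). Over wild-type and knock-out alone, without the knock-out array that stood apart, Reln was at 0.14 and passed the test (adjusted p = 0.035), in a fit that called 23.8% of all genes.

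Cbln1, the main cerebellin of parallel fibre synapses, changed by -0.08 on average (95% interval -0.20 to 0.05, adjusted p = 0.53). With array weights it passed the test on average (-0.11, adjusted p = 0.031) and in transgenic (-0.29, adjusted p = 0.024), where 27.2% and 4.92% of all genes were called. Cbln3, which is secreted only in complexes with cerebellin 1, changed by 0.02 (95% interval -0.21 to 0.25, adjusted p = 0.95). Calb2 changed by -0.07 (95% interval -0.21 to 0.08, adjusted p = 0.66). The 3 intervals, each of the gene's brightest probe set, span 0, and that of Cbln3 is the widest. In the fit of all probe sets, the dimmest Cbln1 probe set was at -0.19 (95% interval -0.33 to -0.04, adjusted p = 0.22). The middle one was at -0.08 (95% interval -0.24 to 0.07).

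**Figure D2:**
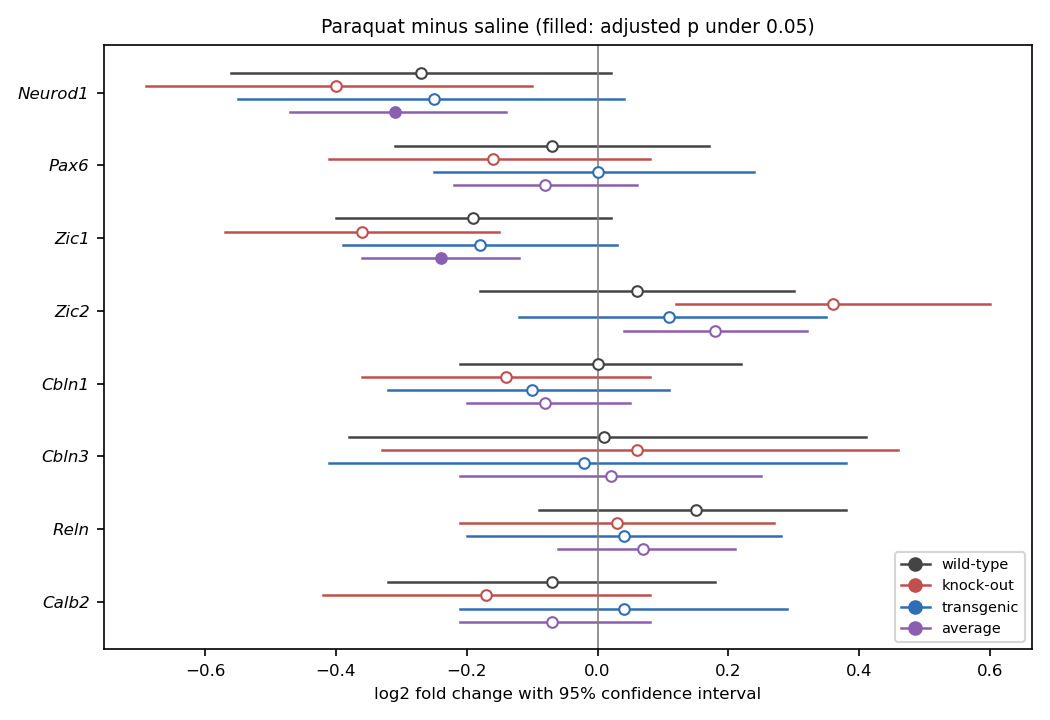
Log2 fold change of paraquat against saline (horizontal axis, points) with 95% intervals (lines) for the 8 genes in each genotype and on average, filled where the adjusted p was under 0.05. The filled points are the averages of Neurod1 at -0.31 and Zic1 at -0.24, and the intervals of single genotypes are wider than those of the average.

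No gene of the 8 showed a called difference in its paraquat response between genotypes. For knock-out against wild-type, 0 of 8 were called by limma and 0% of all genes, and at an unadjusted p under 0.05 there were 0 of 8 against 1.78% of all. For transgenic against wild-type it was 0 of 8 against 0.18% of all genes, and 0 of 8 against 4.54% at an unadjusted p under 0.05. The differences for Neurod1 were -0.13 (95% interval -0.54 to 0.29) in knock-out and 0.02 (95% interval -0.40 to 0.43) in transgenic. For Zic1 they were -0.17 (95% interval -0.46 to 0.13) and 0.01 (95% interval -0.28 to 0.31), so that each interval includes differences as large as the paraquat change itself. These comparisons share the wild-type arrays.

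Loss of ApoD gave no called change in any of the 8 genes. The count was 0 of 8 under saline, under paraquat and on average over treatments, against 0.024%, 0.012% and 0.18% of all genes called. At an unadjusted p under 0.05 there were 1, 0 and 0 of 8, against 1.55%, 13.2% and 9.18% of all genes. The 1 was Zic2 under saline, which changed by -0.25 (95% interval -0.49 to -0.01, adjusted p = 1.0) and by -0.10 without the first wild-type saline array. On average, the changes ran from -0.09 for Zic2 to 0.12 for Cbln3, with a median of 0.04 against -0.06 over all genes. The second knock-out paraquat array has the low median given above, and quantile normalisation moved the median of all genes under paraquat from -0.12 to -0.02, so knock-out values under paraquat are best read against that shift.

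In the transgenic mice, Cbln1 was higher and was the single granule neuron gene of the 8 to pass the test on average over treatments. The signal was 1.19-fold higher than in wild-type. That is 12.5% of the 8, while 31.4% of all genes were called in this comparison and 10.8% were called higher, so that 1 of 8 is near the share of all genes called higher. Cbln1 read 12.64, 12.65 and 12.78 in wild-type saline and 12.83, 13.16 and 12.97 in transgenic saline. Under paraquat it read 12.66, 12.73 and 12.69 in wild-type and 12.90, 12.81 and 12.95 in transgenic. All 6 transgenic arrays lay above all 6 wild-type arrays, as for 4.47% of all genes. The knock-out arrays, at 12.85, 12.72 and 12.75 under saline and 12.68, 12.47 and 12.75 under paraquat, overlapped those of wild-type.

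The average Cbln1 difference was 0.25 (SE 0.07, 95% interval 0.09 to 0.40, adjusted p = 0.015). It was 0.30 under saline (adjusted p = 0.086) and 0.20 under paraquat (adjusted p = 0.19). The saline difference passed without the knock-out paraquat array that stood apart (0.30, adjusted p = 0.022) and without transgenic saline array 1 (0.38, adjusted p = 0.026). The average call was lost without the second transgenic saline array, the highest of all (0.20, adjusted p = 0.052), and with the mean of the gene's 3 probe sets (0.19, adjusted p = 0.0502). Without transgenic arrays 1 and 3 it was 0.30 (adjusted p = 0.042). Grid1, a delta receptor and the 1 of 7 listed cerebellin partners that was tested, differed by 0.32 without passing the test (adjusted p = 0.14). Its signal was dim, at 6.35 to 6.53 in wild-type saline and 6.16 to 6.44 in wild-type paraquat. The 40th percentiles of the arrays were 6.30 to 6.40.

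Calb2, whose arrays varied with those of Cbln1, read 12.09, 12.08 and 12.18 in wild-type saline and 12.04, 12.47 and 12.27 in transgenic saline, which overlap. Under paraquat it read 12.08, 11.96 and 12.10 in wild-type and 12.17, 12.38 and 12.34 in transgenic, with no overlap, as for 14.4% of all genes with transgenic higher. The knock-out arrays read 12.19, 12.10 and 12.14 under saline and 12.08, 11.72 and 12.12 under paraquat. The average transgenic difference of 0.20 (95% interval 0.02 to 0.38) missed the threshold (adjusted p = 0.083). It passed after quantile normalisation (0.23, adjusted p = 0.016), without the first transgenic saline array (0.25, adjusted p = 0.022), without the second knock-out paraquat array (0.20, adjusted p = 0.025) and without transgenic arrays 1 and 3 (0.35, adjusted p = 0.037).

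Cbln3 differed by 0.25 as well, with a wide interval from -0.03 to 0.53 (adjusted p = 0.17). The wild-type arrays lay at 9.96, 9.89 and 10.06 under saline and 9.95, 10.09 and 9.90 under paraquat. The transgenic arrays lay at 9.80, 10.22 and 10.66 under saline and 9.84, 10.09 and 10.71 under paraquat, so the first array of each transgenic group was the lowest and the third the highest. The knock-out arrays lay at 10.12, 10.06 and 10.03 under saline and 10.26, 9.93 and 10.20 under paraquat. The arrays numbered 3 are those with the low pyruvate carboxylase difference and those numbered 1 have the high dap spike, whose part in the spread of Cbln3 was not tested. Without the first transgenic saline array the difference was 0.35 (adjusted p = 0.034).

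Pax6 was lower in transgenic mice without passing the test, by -0.18 on average (95% interval -0.36 to -0.01, adjusted p = 0.096). It did pass without the knock-out paraquat array that stood apart (adjusted p = 0.018). Neurod1 at -0.14 (adjusted p = 0.30), Zic1 at -0.07 (adjusted p = 0.49), Zic2 at 0.01 (adjusted p = 0.93) and Reln at 0.01 (adjusted p = 0.95) did not differ beyond their error. Of the 8, 3 had an unadjusted p under 0.05 against 41.9% of all genes, and the median was 0.01 against -0.03. Under saline 0 of 8 were called by limma against 6.36% of all genes, and under paraquat 0 of 8 against 19%. At an unadjusted p under 0.05 there were 1 and 0 of 8, against 24% and 34.4% of all genes.

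**Figure D3:**
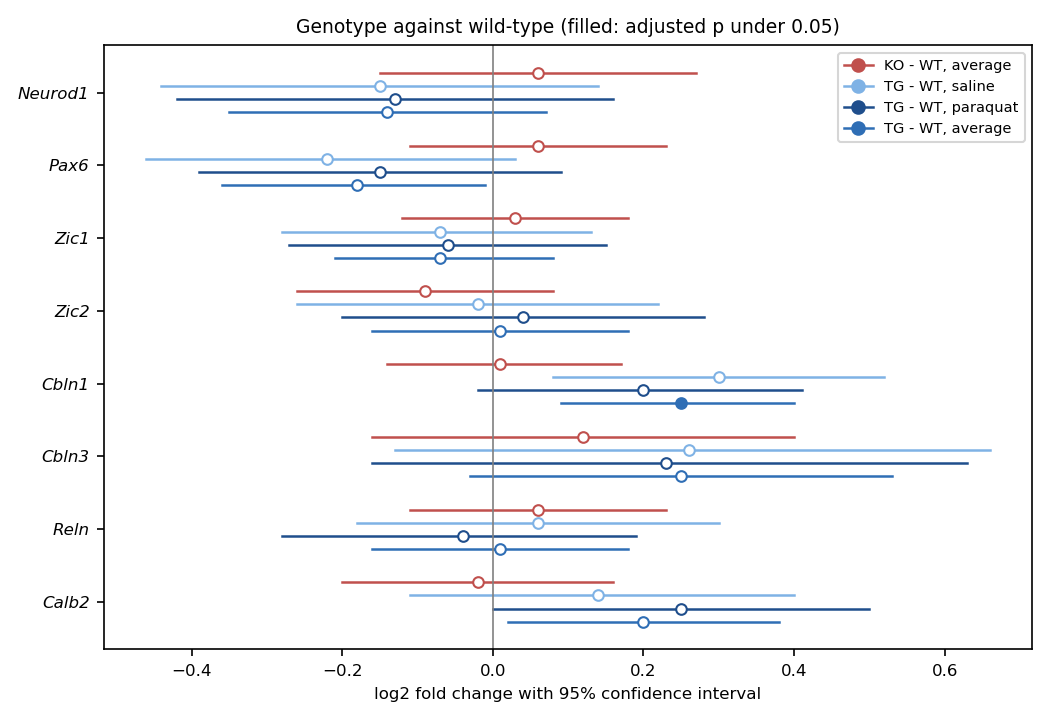
Log2 fold change against wild-type (horizontal axis, points) with 95% intervals (lines) for the 8 genes in knock-out on average over treatments and in transgenic under saline, under paraquat and on average, filled where the adjusted p was under 0.05. The single filled point is Cbln1 in transgenic on average at 0.25, and Pax6 on average at -0.18 lies on the other side of 0.

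**Figure D4:**
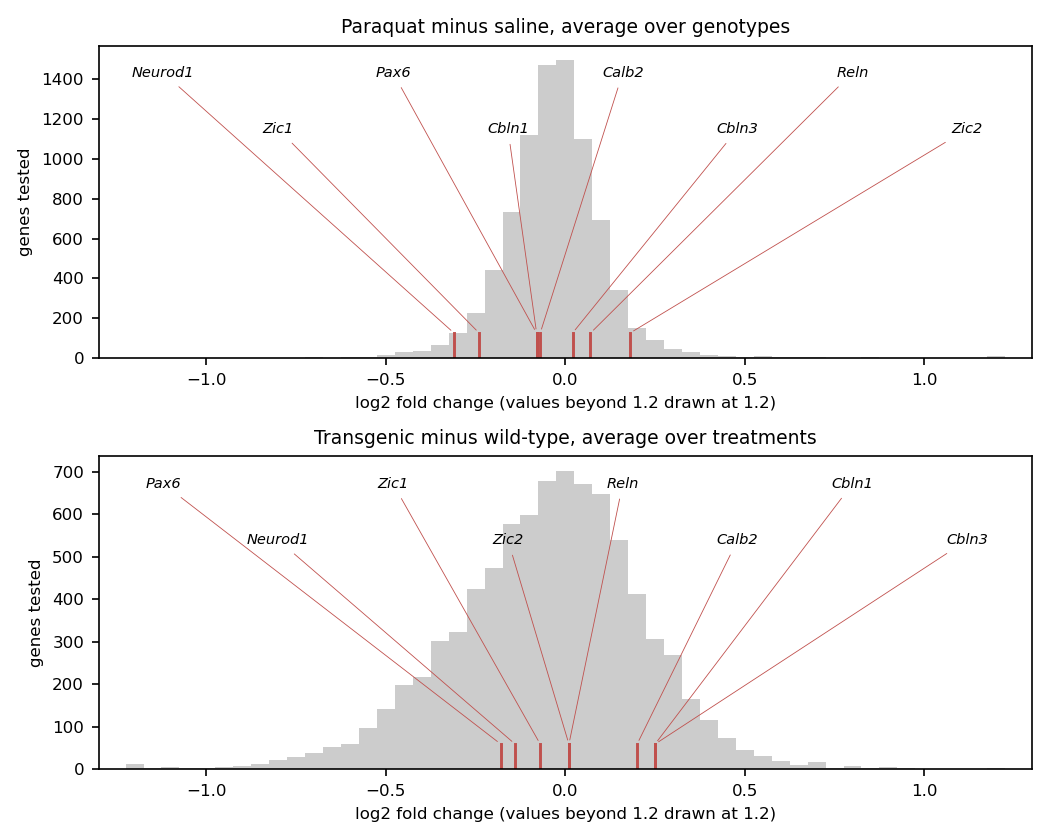
Number of genes (vertical axis) by log2 fold change (horizontal axis) over the 8320 genes tested, with the 8 granule neuron genes as red marks, for paraquat against saline (top) and transgenic against wild-type (bottom). Neurod1 at -0.31 and Zic1 at -0.24 lie in the lower tail of the top panel, and all 8 lie within the broad centre of the bottom panel.

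Ordered by group mean, knock-out saline was highest for Neurod1 (11.49 ± 0.07, SD, n = 3), Zic1 (13.22 ± 0.06, SD, n = 3) and Pax6 (8.88 ± 0.11, SD, n = 3). Transgenic paraquat was lowest for Neurod1 (10.96 ± 0.06, SD, n = 3) and Zic1 (12.86 ± 0.14, SD, n = 3). The order of Neurod1 and Zic1 was the same through all 6 groups: knock-out saline, wild-type saline, transgenic saline, wild-type paraquat, knock-out paraquat and transgenic paraquat. For Neurod1, wild-type and knock-out paraquat both had a mean of 11.09, and the knock-out mean includes the array that stood apart, so their order is not settled. Of the 5 pairs of neighbours in an order, all overlapped for Neurod1, Pax6, Cbln1, Cbln3, Reln and Calb2, and 4 of 5 overlapped for Zic1 and Zic2. The means of the highest and lowest group were 0.52 apart for Neurod1, 0.36 for Zic1, 0.36 for Zic2 and 0.15 for Reln, whose pooled SD was 0.13.

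Across the 18 arrays, Neurod1 and Zic1 varied together (Pearson r = 0.88, and 0.73 after the group means were removed), as did Cbln1 and Calb2 (r = 0.84, and 0.79 after removal). Pax6, which was not called, varied with Neurod1 (r = 0.76, and 0.75 after removal) and with Zic1 (r = 0.68, and 0.78 after removal). Zic1 and Zic2 had r = -0.60 over all arrays and 0.02 after removal. These correlations share libraries and scaling and are given as descriptions. The genes most like Neurod1 among those tested were Tlcd4 (r = 0.92), Fam126a (r = 0.92) and Marcks (r = 0.91). Marcks also stood among the nearest to Zic1 (r = 0.91), beside Elovl6 (r = 0.94) and Qk (r = 0.91). Nearest to Cbln1 were Tbl2 (r = 0.94), Desi1 (r = 0.92) and Gpr108 (r = 0.91), and nearest to Calb2 were Parp1, Ubfd1 and Tjap1 (r = 0.93, 0.93 and 0.92). Myef2 (r = 0.93) was nearest to Pax6, Clcn6 (r = 0.93) to Cbln3 and Ncapd2 (r = 0.87) to Reln. For Zic2 the nearest gene was Tmem203, at r = 0.67.

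Neurod1, Pax6 and Cbln1 had more than 1 probe set, and these were fitted beside all 20380 probe sets with no filter. In that fit 2.09% of probe sets were called for paraquat on average and 21.8% for transgenic against wild-type. The second Neurod1 probe set read 11.06 to 11.10 in wild-type saline and 10.61 to 11.04 in wild-type paraquat. In knock-out it read 11.20 to 11.56 under saline and 10.60 to 11.16 under paraquat, also without overlap. In transgenic it read 10.86 to 11.43 under saline and 10.87 to 11.11 under paraquat, which overlap, with a change of -0.11. Its average paraquat change of -0.26 (95% interval -0.46 to -0.07, adjusted p = 0.19) had the sign of the first (-0.31, adjusted p = 0.065 in this fit), and neither passed the test there. The 2 differed in sign for transgenic against wild-type, at 0.13 and -0.14, with both intervals spanning 0. The 3 Cbln1 probe sets were all higher in transgenic, at 0.25 (adjusted p = 0.020), 0.20 (adjusted p = 0.099) and 0.12 (adjusted p = 0.37), and the first alone was called.

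For Pax6, the probe sets disagreed. The brighter one was at -0.18 in transgenic against wild-type (95% interval -0.36 to -0.01), and a dimmer one was at 0.27 (95% interval 0.02 to 0.52), with adjusted p of 0.12 for both. The dimmer one was also higher in knock-out, by 0.34 (95% interval 0.10 to 0.59, adjusted p = 0.44), where the brighter one was at 0.06. The other 3 Pax6 probe sets lay below the filter on all 18 arrays. A direction for Pax6 in the transgenic mice therefore depends on the probe set.

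**Figure D5:**
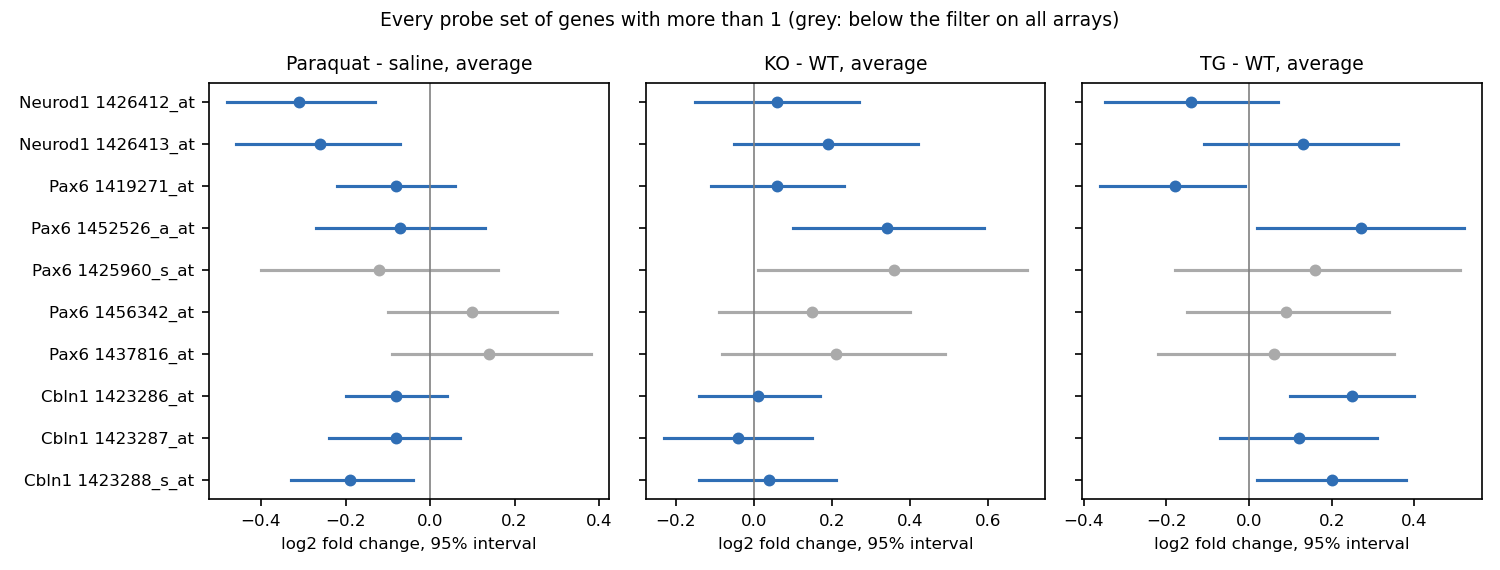
Log2 fold change (horizontal axis, points) with 95% intervals (lines) of every probe set of Neurod1, Pax6 and Cbln1 for paraquat against saline, knock-out against wild-type and transgenic against wild-type, grey where the probe set lay below the filter on all arrays. Both Neurod1 probe sets lie below 0 under paraquat, at -0.31 and -0.26, and the 2 Pax6 probe sets above the filter lie on opposite sides of 0 in transgenic, at -0.18 and 0.27.

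The probe sets shared by Etv1 and Gm5454 gave no basis for a call on Etv1. The brighter one read 10.63 to 10.72 in wild-type saline and 10.49 to 10.55 in wild-type paraquat, and 9.77 to 10.76 in transgenic saline. The dimmer one read 9.14 to 9.31 in wild-type saline and 9.12 to 9.28 in wild-type paraquat. In wild-type, paraquat lay below saline without overlap in the brighter one, as for 11.8% of all genes, and the groups overlapped in the dimmer one. The mean of the brighter one went from 10.50 under saline to 10.22 under paraquat in knock-out, and from 10.40 to 10.50 in transgenic.

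Other granule neuron genes, a list of 30 of which 23 were tested, gave 0 called higher and 1 called lower under paraquat on average, with a median of -0.11 against -0.03 over all genes, of which 2.88% were called lower. The 1 was Eomes (-0.55, SE 0.12, adjusted p = 0.0093), a T-box factor known in the cerebellum from unipolar brush cells and granule lineage precursors. In knock-out alone Nfia, a nuclear factor of granule neuron maturation, fell by 0.59 on the log2 scale under paraquat (adjusted p = 0.018), 1 of 23 where 2.26% of all genes were called. Nfia was also the 1 listed gene called between knock-out and wild-type on average, where it was higher (0.64, SE 0.09, adjusted p = 0.0029). In transgenic against wild-type, 4 of the 23 were called higher and 4 lower, with a median of -0.04; with 31.4% of all genes called there, 8 of 23 is near the share of all genes. Those with the largest change were Cntn2, an axonal adhesion molecule of young granule neurons (0.60, adjusted p = 0.0024), Nfia (0.51, adjusted p = 4.7e-04), Meis2, a homeobox factor (-0.38, adjusted p = 0.023), and Il16 (0.37, adjusted p = 0.0018).

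Of the granule progenitor and hedgehog genes, 10 of 13 were tested, and 0 rose and 3 fell under paraquat on average, where 2.88% of all genes were called lower. Of the D-type cyclins, Ccnd1 (-0.49, SE 0.08, adjusted p = 7.1e-04) and Ccnd2 (-0.37, SE 0.09, adjusted p = 0.017) fell. Ccnd3, which is not on the list, was at -0.02. Ptch1, the hedgehog receptor and a target of the pathway, also fell (-0.37, SE 0.10, adjusted p = 0.028). The median of the list was -0.06. These genes are also transcribed in other cells of the adult cerebellum, among them glia. In transgenic against wild-type, 1 of 10 was called, under the 31.4% of all genes, Boc (0.47, adjusted p = 0.019), a hedgehog co-receptor.

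Of the reelin pathway, 21 of 22 genes were tested and 0 were called under paraquat on average by limma, where Rap1a, a small GTPase downstream of reelin, had the smallest p (-0.26, adjusted p = 0.088). In transgenic against wild-type 4 were called higher and 2 lower, and 6 of 21 is no more than the 31.4% of all genes called. Those with the largest change were Itgb1, an integrin subunit (0.56, adjusted p = 1.2e-04), Pafah1b1, the LIS1 protein that binds dynein (-0.49, adjusted p = 0.0071), its partner Pafah1b2 (0.48, adjusted p = 0.0017) and Akt1 (0.44, adjusted p = 0.0030). Of the 6 genes listed for the FAT and Dachsous cadherins, none of the cadherins was tested. The 1 tested was Fjx1, which is not itself a cadherin, and it changed by -0.19 under paraquat on average (adjusted p = 0.093).

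Of the relatives of Etv1 and genes of neuronal activity, 6 of 8 were tested and 3 fell under paraquat on average, where 2.88% of all genes were called lower. Fos, the immediate early gene, fell by 1.43 on the log2 scale (adjusted p = 2.6e-06), Nr4a1, an immediate early nuclear receptor, by 0.64 (adjusted p = 2.3e-05) and Etv5, an ETS factor, by 0.38 (adjusted p = 0.022). In the transgenic mice alone Fos was at -0.19 and Nr4a1 at -0.05, with adjusted p of 1.0. For the transgenic minus the wild-type response, 0 of the 6 were called by limma, against 0.18% of all genes, so a difference between genotypes was not shown. In transgenic against wild-type on average over treatments, Etv5 (0.65, adjusted p = 4.0e-04) and Etv4 (0.25, adjusted p = 0.018) were higher and Bdnf, a neurotrophin, lower (-0.50, adjusted p = 0.022). That is 3 of 6, where 31.4% of all genes were called. Under paraquat alone 4 of the 6 were called higher by limma, where 19% of all genes were called in either direction. Under saline alone 0 of the 6 were called, against 6.36% of all genes.

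Markers of other cell types were set beside these results. These lists and those above were chosen with earlier results of these data known, so their shares of called genes are descriptions. Under paraquat on average, 0 of 9 Purkinje, 0 of 7 interneuron and Golgi cell, and 0 of 11 astrocyte and Bergmann glia genes were called by limma. Lower calls were made for 2 of 8 oligodendrocyte genes (Sox10 and Ugt8a), 2 of 8 microglial genes (Cx3cr1 and P2ry12) and 3 of 5 endothelial genes (Tek, Cldn5 and Flt1), against 2.88% of all genes. The mean level of the endothelial list was 8.18 to 8.34 in wild-type saline and 7.83 to 7.87 in wild-type paraquat. That of the 8 granule neuron genes was 10.78 to 10.84 and 10.74 to 10.80. The part of these other cells in the fall of Neurod1 and Zic1 was not tested.

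Between transgenic and wild-type, all 6 choroid plexus genes tested were called lower, with a median of -1.36. Their mean level was 8.48 to 8.71 in wild-type saline, 8.33 to 8.50 in wild-type paraquat, 6.20 to 7.51 in transgenic saline and 7.02 to 8.14 in transgenic paraquat. Of 8 genes of neighbouring brain regions 3 were called higher and 2 lower, of 11 astrocyte genes 3 higher and 1 lower, of 8 oligodendrocyte genes 3 higher, of 5 endothelial genes 2 higher and 1 lower, of 8 microglial genes 2 lower and of 9 Purkinje genes 2 lower. With 31.4% of all genes called in this comparison, these counts other than that of the choroid plexus are given as values and nothing is read from them. The mean of the 8 granule neuron genes was 10.80 to 10.88 in transgenic saline, which overlaps wild-type. The part of the dissected tissue in the higher Cbln1 was not tested.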

How the data were processed

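Total RNA of 18 cerebellum pools was measured on Affymetrix 3' expression arrays. The authors deposited 1 log2 value per probe set and array, made with RMA per the submitters' processing notes; its version and genome build are not given in the sources used here. The table held 22690 probe sets, 64 of them controls, of which 20380 had 1 gene symbol in the platform annotation, 691 several and 1555 none; values ran from 3.13 to 14.91. Scanner files, background and scan batches were not used here. The number of arrays limits the precision.

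Each gene was taken as its probe set with the highest mean, and kept where 3 or more arrays reached their own 40th percentile. All arrays were fitted together, 1 mean per group for 6 groups, with limma 3.58.1 (R 4.3.3; lmFit, eBayes, two-sided, 12 residual degrees of freedom), with Benjamini-Hochberg adjustment over 8320 genes in each of 12 comparisons. An exact permutation test of 3 against 3 arrays cannot go below p = 0.1 and was not used. The code was tested on simulated data. Named are all 10 genes, of each other list at most 4 called genes with the largest change or, with none called, the smallest p, and the nearest genes by correlation (up to 3). The genes and lists were chosen with earlier results of these data known. Motifs were counted in RefSeq promoter windows.

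Replicate numbers in the titles were checked for pairing. Deviations from the group means of same-numbered saline and paraquat arrays correlated at 0.16, 0.13 and 0.42 in transgenic, at 0.09, 0.15 and 0.34 in wild-type and at -0.09, -0.28 and -0.12 in knock-out. By the rule that every pair exceed 0.1, the numbers pair the transgenic arrays only, and no label says what a number shares. Alternatives were quantile normalisation, no filter, every probe set, the mean of probe sets, the replicate block, only the groups compared, array weights, trended and robust moderation, and leaving out arrays.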

Additional observations from a re-analysis of the deposited data

How the results depend on the processing

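Of 2600 values of single granule neuron genes under alternatives, 2518 kept their direction and side of the threshold or moved by less than the spread between arrays, 29 moved further, 14 lost and 39 gained a call, and 0 called values changed sign. A further check found 84 uncalled values whose sign turned. With the replicate block, the counts of called genes remained 2 for paraquat on average, 1 for transgenic against wild-type on average and 0 elsewhere. The adjusted p was 0.041 for Neurod1, 0.025 for Zic1 and 0.019 for Cbln1, and the block changed no call. It gives each replicate number 1 effect shared by all 6 groups, so it cannot fit a pairing within the transgenic arrays alone, which was not tested. Leaving out each array gave 1 to 2 called genes for paraquat on average, 0 to 2 in knock-out, 0 to 3 for transgenic against wild-type on average, 0 to 1 under saline, and 0 in the other comparisons.

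Array weights raised the calls over all genes as well as among the 8. For paraquat they called 2 of 8 in wild-type (Neurod1 and Zic1), with 12.7% of all genes called, and 3 in knock-out (with Zic2), with 26.1%. They called 1 in transgenic (Cbln1), with 4.92%, and 3 on average (Neurod1, Zic1 and Cbln1), with 27.2%. They called 1 for the transgenic minus the wild-type response (Cbln1), with 8.26%, and 1 for knock-out against wild-type under saline (Zic2), with 2.9%. For transgenic against wild-type they called 5 under saline, 2 under paraquat and 5 on average, where 49.4%, 49.6% and 61.7% of all genes were called. Quantile normalisation gave 1, 2 and 2 genes for these 3 transgenic comparisons, with 14%, 25.3% and 37.9% of all genes. Trended and robust moderation gave 1 for paraquat in knock-out (Zic1), with 2.3% of all genes, and 1 for transgenic against wild-type under saline (Cbln1), with 7.02%. The fit of wild-type and knock-out without the knock-out array that stood apart called 3 for paraquat (Neurod1, Zic1 and Reln), with 23.8% of all genes. For transgenic against wild-type on average, fitting only the groups compared gave 2 (Cbln1 and Pax6), with 37.8% of all genes called, the mean of probe sets gave 0, with 32.1%, and leaving out transgenic arrays 1 and 3 gave 2 (Cbln1 and Calb2), with 20%. Leaving out those arrays gave 0 for paraquat on average, with 207 genes called over all against 407; it leaves fewer arrays, and other causes were not tested. Why the other settings change calls was not tested. The interval of a paraquat change within 1 genotype, such as -0.56 to 0.02 for Neurod1 in wild-type, shows what 3 pools per group can resolve.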
